A study of Mus musculus with 21 samples.

Results

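The clustered protocadherins, cell surface adhesion proteins that neurons use to tell their own branches from those of other cells, were examined as 58 genes of the alpha (14), beta (22) and gamma (22) clusters. A gene was taken as a member when its symbol in the tables of levels read Pcdha, Pcdhb, Pcdhga or Pcdhgb with a number, or was one of the C-type genes Pcdhac1, Pcdhac2, Pcdhgc3, Pcdhgc4 and Pcdhgc5. The table of mouse nuclei lists all 58 among its 39008 features. The table of Neuro2a cultures lists 55 among its 31553, and Pcdha7, Pcdhb1 and Pcdhga7 are not among them.

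In the alpha and gamma clusters each gene has a promoter and first exon of its own, which is spliced to constant exons shared by its cluster, so the proteins differ outside the cell and share their cytoplasmic tail. Beta genes are single exons and have no shared tail. The alternate promoters are chosen at random in each neuron with the help of CTCF and cohesin, whereas most C-type genes are used more uniformly, and the resulting combination gives a cell a surface identity for homophilic recognition, in which matching isoforms bind one another.

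PolyA RNA of 21 mouse samples was sequenced to an estimated depth of 15.53 to 20.97 M reads a library, worked out from the value of 1 read. Neuro2a, a mouse neuroblastoma line, received a plasmid for sadCas9-VP64, a dead Cas9 fused to a transcriptional activator, without a guide RNA (VP64 only, 6 cultures) or 750 ng of it together with 750 ng of guide RNA (CRISPRa, 6 cultures). The guide in mice targets Scn2a, a sodium channel gene, and both Neuro2a groups carry the activator. The library names put replicates 1 to 3 of both groups in a set numbered 7 and replicates 4 to 6 in a set numbered 8. Nuclei positive for NeuN, a neuronal protein, were sorted from 200 mg of cortex. They came from 3 wild-type animals (WT), 3 animals heterozygous for Scn2a (Scn2a+/-, Het) and 3 of the latter genotype that received CRISPRa (Het CRISPRa). All mice were on a C57BL/6J background, and the labels give no ages. The treated mice had 500 nL of rAAV carrying guide and activator in equal parts injected into the medial prefrontal cortex 4 weeks earlier. The share of sorted nuclei that carried the vectors and the promoters driving them are not given. Only the Het CRISPRa mice have a treatment label, and whether WT or Het mice were injected is not given in the sources used here. Nothing says that the 6 Neuro2a samples of a group were separate transfections, so p-values there rest on a spread that may be technical. The nuclear libraries measure nuclear RNA, and in such bulk samples fewer cells of a type and less RNA per cell cannot be told apart.

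Scn2a stood at 3.09 ± 0.23 CPM (read counts scaled to a library total of 1e+06; SD, n = 6) with VP64 only and at 4.61 ± 0.50 with CRISPRa (adjusted p = 0.00531 by limma), and at 250.3 ± 18.8, 229.7 ± 28.7 and 271.3 ± 17.7 CPM in WT, Het and Het CRISPRa nuclei (n = 3), where no difference passed the threshold and the ranges of WT (229.5 to 266.0) and Het (203.3 to 260.3) overlapped. Excitatory neuron markers summed to between 3178 and 3622 CPM in the nuclei and inhibitory ones to between 379.0 and 493.3, with astrocyte markers between 9.9 and 26.1. Markers of striatal neurons, which a cortical dissection can touch, varied more, between 122.9 and 545.8 CPM. The Neuro2a libraries held 655.5 to 914.2 CPM of neuroblastoma markers.

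The 3 clusters were measured with unequal certainty. In the mouse annotation the alpha and gamma transcripts have 4 exons and share between 40.7 and 58.4% of their 100-base words with another member, whereas the single-exon beta genes share at most 7.73%. In the deposited values, 89.0% of the beta values above 0 in Neuro2a were whole reads to within 0.01 of a read, against 2.27% of the alpha and 3.26% of the gamma values. In the nuclei these shares were 92.0, 3.20 and 3.08%. Alpha and gamma values thus hold fractions of reads. How reads of the shared exons were divided among them is not given in the sources used here, and a value of one such member can depend on those of its cluster.

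In Neuro2a a handful of genes carried most of the family. Pcdhgc3, a gamma C-type gene known as broadly expressed, had a mean of 161.5 CPM, with 127.4 in the lowest, 168.4 in the median and 185.2 in the highest of the 12 libraries. It made up 70.7 to 75.8% of the gamma sum and led that cluster in 12 of 12 libraries. Per kilobase of transcript, which takes account of length, its level of 34.5 CPM was the highest of the 55. How reads of the shared exons were divided also enters such values. Ranks of beta genes beside alpha and gamma genes are thus less certain. Pcdhgb8 followed at 7.68 CPM per kilobase (mean 35.4 CPM), then Pcdhgb1 at 2.89 (13.6 CPM), Pcdhac2 at 2.24 (13.2 CPM) and Pcdhb20 at 1.80 (6.40 CPM). The lowest and highest libraries were 5.504 and 10.04 CPM per kilobase for Pcdhgb8, 2.07 and 3.67 for Pcdhgb1, 1.69 and 3.02 for Pcdhac2 and 1.18 and 2.47 for Pcdhb20. Pcdhgc3 and Pcdhgb8 thus stood clear of all below them, and the last 3 overlapped.

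The other gamma C-type genes were close to silent in Neuro2a. Pcdhgc4 lay between 0 and 0.629 CPM and Pcdhgc5 between 0.074 and 0.621, where 3 reads, the count that a listed 0 allows, are worth 0.143 to 0.193 CPM. The alpha C-type genes differed from each other: Pcdhac2 led its cluster in 12 of 12 libraries, while Pcdhac1 had a median of 1.03 CPM. The C-type genes together made up 60.6 to 68.8% of the summed CPM of the family.

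Most other members were low in Neuro2a. A mean under 0.5 CPM was found for 32 of 55 members, namely 8 alpha, 10 beta and 14 gamma genes, and 30 were listed at 0 in at least 1 library. Pcdhga6 had the lowest mean and was above 0 in 1 library, at 0.0893 CPM. Among the alternate alpha genes, Pcdha9 (mean 4.91 CPM) and Pcdha8 (2.89 CPM) stood above the rest. In the beta cluster the genes at the far end were highest. By CPM, Pcdhb20 led in 12 of 12 libraries. Pcdhb14 to Pcdhb22 had means above 1 CPM, apart from Pcdhb15 at 0.693 CPM, while Pcdhb2 to Pcdhb13 all had means below it. Per kilobase Pcdhb15, a short transcript, was no exception. Its mean of 0.247 CPM stood beside 0.208 for Pcdhb16, 0.183 for Pcdhb14 and 0.180 for Pcdhb19. The highest of Pcdhb2 to Pcdhb13 was Pcdhb5 at 0.163, and the ranges of these 5 genes overlapped.

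In the cortical nuclei the family was spread over far more genes, and another gamma C-type gene led. Pcdhgc4, an isoform known for supporting the survival of cortical interneurons, had a mean of 73.6 CPM (62.4 in the lowest library, 73.4 in the median and 87.8 in the highest). It led the gamma cluster in 9 of 9 libraries with 50.6 to 60.5% of its sum, and its 14.7 CPM per kilobase was the highest of the 58 members. Pcdhgc5 followed among the gamma genes at 18.7 CPM (14.3 to 25.8). Pcdhgc3 had a mean of 1.26 CPM and a range of 0.413 to 2.47. The tables of the 2 experiments were normalised separately and the cells differ in kind and RNA fraction, so these levels are given side by side without a test.

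In the beta cluster of the nuclei Pcdhb17 led in 9 of 9 libraries with a mean of 20.1 CPM (16.4 to 23.2). Per kilobase, Pcdhb15 (mean 4.33 CPM, 3.76 to 5.12), Pcdhb17 (4.32, 3.53 to 4.99) and Pcdhb20 (3.73, 2.77 to 4.70) followed Pcdhgc4 together with Pcdhgc5 (3.945, 3.02 to 5.45), and these 4 overlapped. The lowest were Pcdhb1, listed above 0 in a single library at 0.0643 CPM, or 1 read, and Pcdhb2, at 0 in 3 libraries and at most at 0.696 CPM.

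In the alpha cluster of the nuclei no single gene led everywhere. By CPM, Pcdha4 was the highest in 6 of 9 libraries, Pcdha3 in 2 and Pcdhac2 in 1. Per kilobase, the means were 2.57 CPM for Pcdha4, 2.10 for Pcdha3, 1.81 for Pcdhac2 and 1.38 for Pcdha12, and the ranges of these neighbours in the order overlapped. The other 10 alpha genes had means between 1.45 and 4.21 CPM. The third Het library had the highest Pcdha3 value, 17.9 CPM, together with the lowest Pcdha4 value, 7.88 CPM. Pcdhac1 varied from 0.949 to 5.83 CPM.

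Of the 58 members, 52 were above 0 in all 9 nuclear libraries and 50 had a mean of at least 1 CPM, compared with 25 and 17 of 55 in Neuro2a. The C-type genes made up 32.9 to 37.7% of the family sum. The order of member levels was alike between libraries of an experiment (Spearman's rho across members 0.788 to 0.945 over 36 pairs of nuclear libraries and 0.753 to 0.913 over 66 pairs in Neuro2a). Between the mean levels of the 2 experiments rho across 55 genes was 0.12, with 0.49 in the beta cluster, -0.20 in the alpha and -0.0026 in the gamma cluster. These coefficients describe genes that share libraries and, in alpha and gamma, reads. Mean CPM was higher in Neuro2a for 8 genes, Pcdha8, Pcdha9, Pcdhac2, Pcdhb21, Pcdhgb1, Pcdhgb2, Pcdhgb8 and Pcdhgc3, and higher in the nuclei for the other 47.

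**Figure D1:**
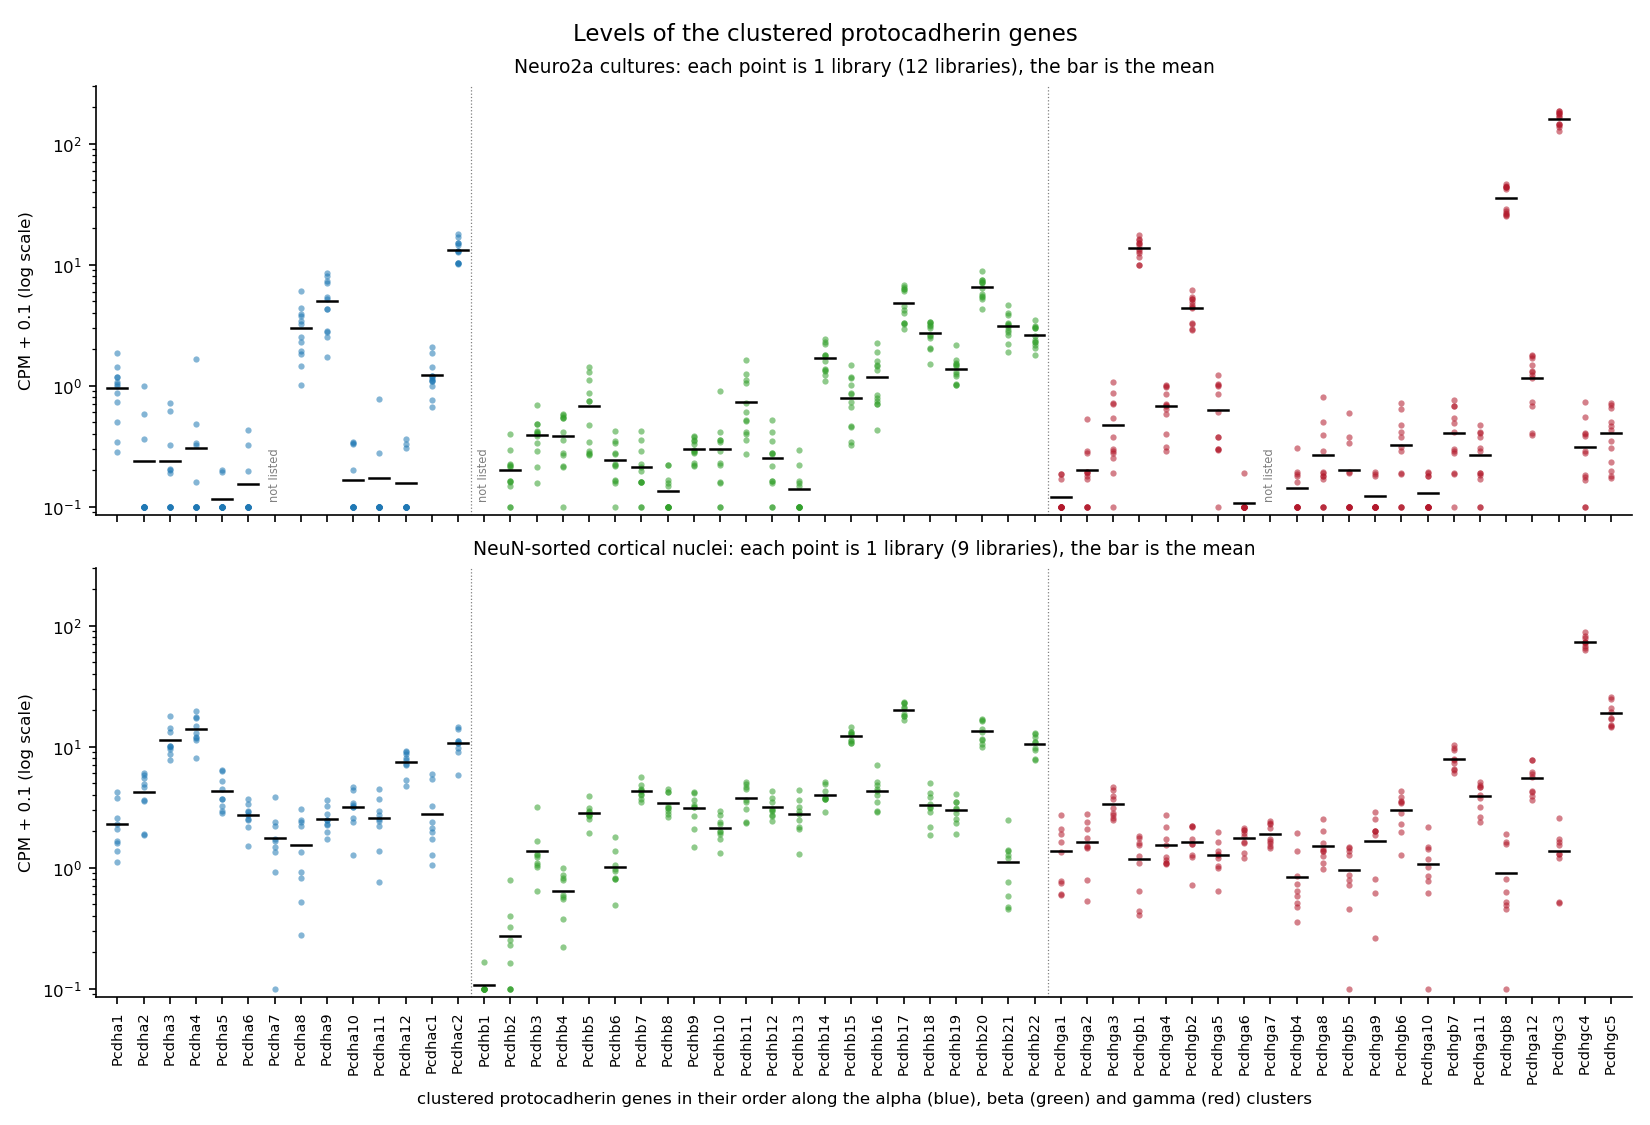
CPM + 0.1 on a log scale (y axis) of each clustered protocadherin in its order along the alpha, beta and gamma clusters (x axis), in 12 Neuro2a libraries (upper panel) and 9 nuclear libraries (lower panel); points are libraries and bars are means. Pcdhgc3 at a mean of 161.5 CPM tops the Neuro2a panel and Pcdhgc4 at 73.6 CPM the nuclear one.

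The first comparison asks which members differed between Neuro2a with guide and activator and with activator alone. Of the 55 members, 23 had at least 0.5 CPM in 6 or more libraries and were tested (5 alpha, 11 beta and 7 gamma). By limma, 1 member rose, Pcdhac2, and 0 fell, where 15.0% of all 14398 genes tested were called, 10.0% higher and 5.02% lower. At an unadjusted p under 0.05, where 30.3% of all genes stood, 2 members were found. The median log2 change of the 23 was -0.07, beside 0.06 over all genes.

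Pcdhac2, the last variable exon of the alpha cluster and the one known for tiling of serotonergic axons, read 10.3, 9.95 and 10.1 CPM in the VP64 only libraries of set 7 and 12.6, 10.1 and 12.9 in those of set 8. With CRISPRa it read 15.1, 13.0 and 14.4 in set 7 and 17.0, 15.1 and 17.8 in set 8. Each CRISPRa library exceeded each VP64 only library, though by little at the edge, 12.98 against 12.88 CPM. The share of genes with groups apart in this direction was 5.74% of all tested, and 3.01% in the other, where 0 members stood. The means were 15.4 ± 1.75 and 10.998 ± 1.35 CPM (SD, n = 6 each), and the difference was 0.47 ± 0.10 on the log2 scale (SE; 95% interval 0.25 to 0.68; adjusted p = 0.00793). An exact two-sided permutation test on mean CPM gave p = 0.00216, the smallest that 6 against 6 allows. Groups without overlap always give this value, so it adds nothing to their being apart. The change was 0.46 in set 7 alone (adjusted p = 0.00207) and 0.47 in set 8 alone (adjusted p = 0.00624), and lay between 0.36 and 0.51 over the 23 alternatives (adjusted p 0.000202 to 0.0466). In the authors' deposited table Pcdhac2 changed by 0.42 ± 0.12 (adjusted p = 0.00577) and was the only one past 0.05 of 47 listed members, of which 24 have an adjusted p.

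The rest of the alpha cluster did not rise with Pcdhac2. Without Pcdhac2, the alpha sum was 8.55 ± 0.68 CPM with VP64 only and 5.97 ± 1.69 with CRISPRa in set 7 (SD, n = 3), and 15.2 ± 1.15 and 12.4 ± 0.44 in set 8. Within each set the CRISPRa libraries all lay below those of VP64 only. The share of Pcdhac2 in the alpha sum was 52.4 to 56.6% with VP64 only and 63.3 to 77.5% with CRISPRa in set 7, and 38.1 to 47.1% and 55.1 to 59.8% in set 8. As values in this cluster hold fractions of shared reads, a higher Pcdhac2 share and lower other members are not separate measurements.

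Pcdha9, the highest alternate alpha gene in these cells, lay lower with CRISPRa in both sets but by less than the spread between all libraries. With VP64 only it read 4.23, 5.09 and 2.44 CPM in set 7 and 7.90, 6.96 and 8.49 in set 8. With CRISPRa it read 2.68, 2.76 and 1.63 in set 7 and 7.26, 4.21 and 5.33 in set 8. The groups overlapped within each set. Its change was -0.54 ± 0.33 (adjusted p = 0.297 by limma). It was again -0.54, with an adjusted p of 0.00652, when replicate numbers, each joining libraries of the same set, were kept as a block. With the set as a covariate in place of the block the adjusted p was 0.0188. It was 0.0482 in set 7 alone and 0.0608 in set 8 alone.

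Pcdhb5, a beta gene at the edge of detection here, read 0.372, 0.645, 0.242, 1.34, 1.19 and 1.01 CPM in VP64 only libraries 1 to 6. It read 0.170, 0.180, 0.167, 0.189, 0.644 and 0.768 CPM in CRISPRa libraries 1 to 6. Within each set the CRISPRa libraries lay below those of VP64 only, and between sets the groups overlapped. The change was -0.59 ± 0.26 (adjusted p = 0.151 by limma). The adjusted p was 0.0421 under the replicate block and 0.0187 with the set as a covariate. In set 7 alone it was 0.228 and in set 8 alone 0.0602. Thus 2 of 23 members, Pcdha9 and Pcdhb5, were called lower with the block or the covariate. In the fit of all libraries with neither term 0 were. The block called 11.4% of all genes lower and the covariate 14.5%, in place of 5.02%, so the members' share was below that of all genes.

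The other C-type genes did not pass. Pcdhgc3 read 127.4 (lowest), 155.4 (median) and 184.7 CPM (highest) with VP64 only and 145.5, 171.7 and 185.2 with CRISPRa, a difference of 0.10 ± 0.10 (95% interval -0.12 to 0.31; adjusted p = 0.544). In set 8 alone its change was 0.18 (adjusted p = 0.0304) and in set 7 alone 0.02. Pcdhac1 stood at 1.21 ± 0.29 CPM with VP64 only and 1.04 ± 0.51 with CRISPRa (-0.19 ± 0.20, adjusted p = 0.554). Without CRISPRa replicate 5, the highest of its group, the Pcdhac1 change was -0.34 (adjusted p = 0.17 by limma). Pcdhgc4 and Pcdhgc5 were too low to be tested.

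By cluster, 2 of 5 tested alpha, 3 of 11 beta and 6 of 7 gamma members had values above 0. The beta sum was 27.7 ± 7.01 CPM with VP64 only and 25.5 ± 5.16 with CRISPRa, and the gamma sum 213.5 ± 34.5 and 224.7 ± 24.6 (SD, n = 6). In set 8 the beta sum was 32.8 to 36.1 CPM with VP64 only and 27.6 to 32.2 with CRISPRa, and the gamma sum 172.1 to 189.96 and 192.0 to 222.8, so both were apart. In set 7 the beta sum was 21.2 to 21.6 CPM with VP64 only and 20.3 to 21.6 with CRISPRa, and the gamma sum 239.7 to 248.9 and 240.0 to 251.5, and both overlapped. The C-type share of the family sum was 60.6 to 61.6% with VP64 only and 63.4 to 66.5% with CRISPRa in set 8, apart, and 64.6 to 68.1% and 67.7 to 68.8% in set 7, overlapping. No test was run on these sums. Summed pan-neuronal markers were 117.5 to 150.1 CPM with VP64 only and 99.1 to 119.4 with CRISPRa, and their part in the Pcdhac2 difference was not tested.

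**Figure D2:**
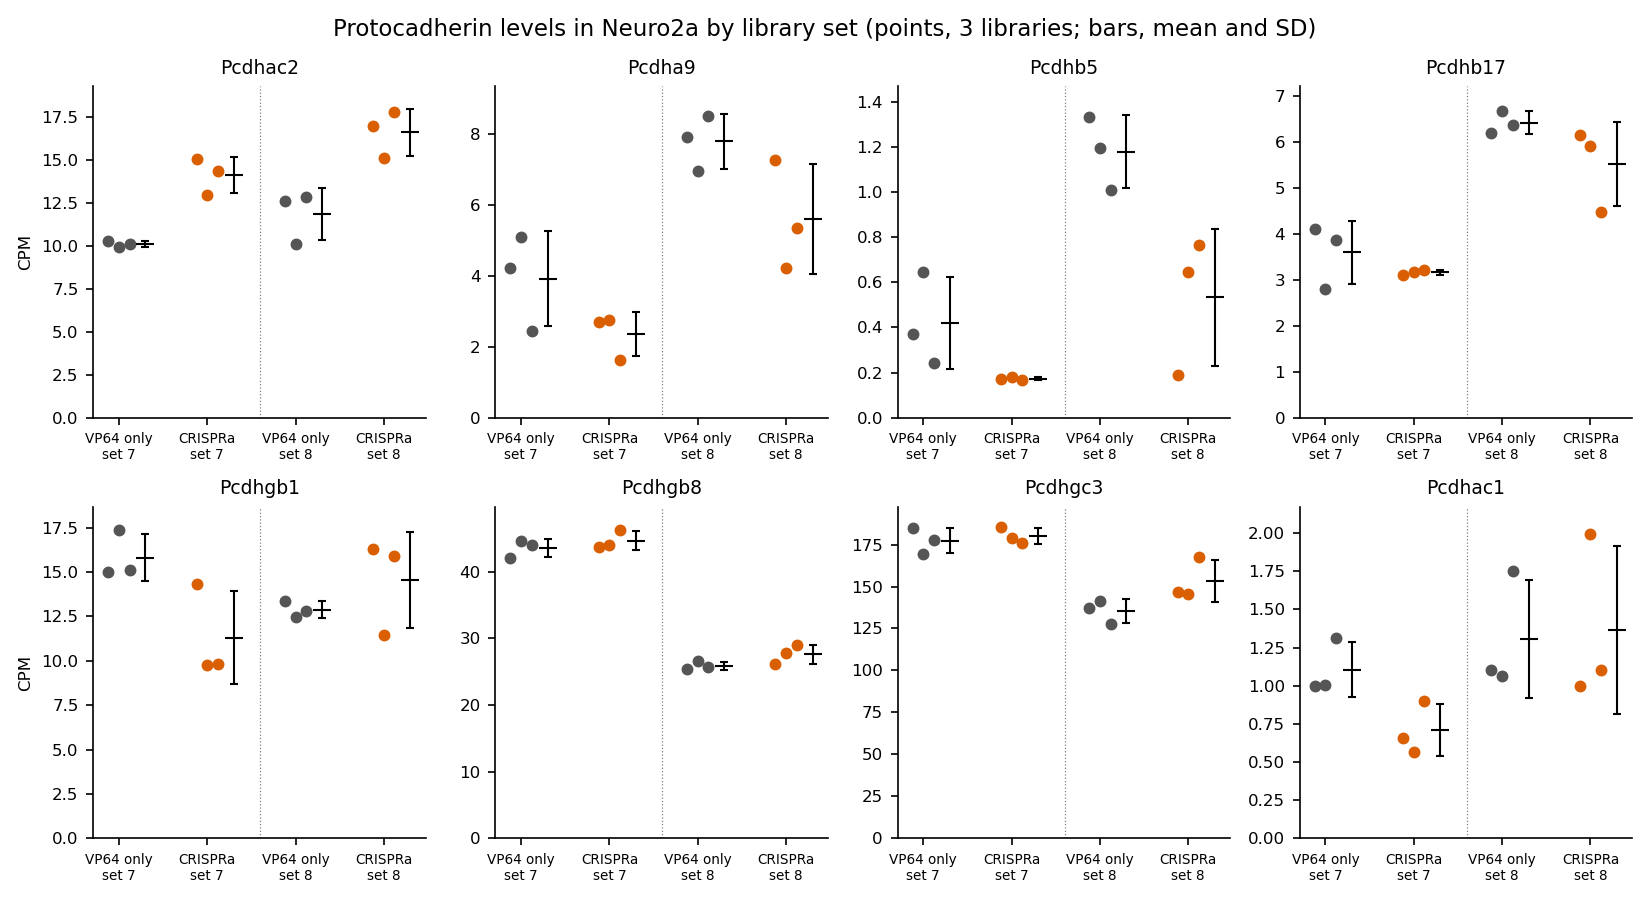
CPM (y axis) of 8 protocadherins in the 12 Neuro2a libraries, by group and library set (x axis, grey VP64 only and orange CRISPRa); points are libraries and black bars are the mean and SD of 3. Pcdhac2 is higher with CRISPRa in both sets, and Pcdhgb8 separates the sets, near 44.1 CPM in set 7 and 26.8 in set 8.

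The second comparison was between the library sets. With treatment as a further term, 11 of the 23 members were higher and 2 lower in set 8 than in set 7, where 55.1% of all genes were called, 22.7% higher and 32.4% lower. The 13 members called are thus a share close to that of all genes. At an unadjusted p under 0.05, where 60.1% stood, there were 15. The labels do not say what a set number stands for. By cluster, 3 of 5 alpha and 7 of 11 beta members were higher and 0 lower, while 1 gamma member was higher and 2 were lower. The median log2 difference of the members was 0.36, beside -0.05 over all genes.

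The highest gamma genes were lower in set 8. Pcdhgb8 read 42.1, 44.0 and 46.3 CPM in the lowest, median and highest library of set 7 and 25.4, 26.4 and 29.0 in set 8. The sets were far apart and each was tight (44.1 ± 1.37 against 26.8 ± 1.36 CPM, SD, n = 6), a difference of -0.71 ± 0.045 (adjusted p = 5.1e-09). Pcdhgc3 read 169.5, 178.3 and 185.2 CPM in set 7 and 127.4, 143.4 and 167.4 in set 8, again without overlap (-0.31 ± 0.046, adjusted p = 2.99e-05). For both, the exact two-sided permutation test gave p = 0.00216, the smallest possible, which sets without overlap always give.

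Members of the beta and alpha clusters made up 10 of the 11 that were higher in set 8. Pcdhb17 was higher by 0.74 ± 0.11 (3.39 ± 0.50 to 5.97 ± 0.78 CPM, adjusted p = 3.74e-05) and Pcdhb16 by 0.91 ± 0.15 (0.601 ± 0.14 to 1.57 ± 0.34 CPM, adjusted p = 0.000121), both without overlap. Pcdha9 was higher by 1.02 ± 0.17 (3.14 ± 1.27 to 6.69 ± 1.62 CPM, adjusted p = 8.54e-05) and its neighbour Pcdha8 by 0.89 ± 0.22 (1.90 ± 0.79 to 3.89 ± 1.25 CPM, adjusted p = 0.00305). Pcdhb5 was higher by 0.73 ± 0.18 and Pcdhb20 by 0.40 ± 0.11, with adjusted p of 0.00307 and 0.00492. Pcdhb5 met the filter mainly through set 8. In set 7 it reached 0.5 CPM in VP64 only replicate 2 alone. Its call and its place in the count of 11 thus lean on the set where it was high. Pcdhb11 and Pcdhga5 had medians of 0.462 and 0.393 CPM over the 12 libraries, so neither reached 0.5 CPM in more than 6. Beta members at 0.5 CPM or more numbered 8 to 9 in set 7 and 10 to 12 in set 8. Gamma members numbered 5 to 9 and 6 to 8. Other calls among the 11, the gamma A one included, may thus lean on set 8 too. Pcdhac2 was also higher, by 0.22 ± 0.077 (adjusted p = 0.0242). Among members whose sets were apart, 2 were higher and 2 lower, where 9.45 and 13.2% of all genes were. The count of higher members was 7 without VP64 only replicate 4 and 7 without VP64 only replicate 6, in place of 11. Pcdhb5 fell below the filter, and so was not tested, without either of these libraries. That is not the whole of the difference in the count. Pcdhb11 and Pcdhga5 met the filter as narrowly and can drop out in the same way.

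As cluster sums, alpha moved from 19.4 ± 1.26 CPM in set 7 to 28.1 ± 1.439 in set 8 and beta from 21.2 ± 0.51 to 32.0 ± 2.88, while gamma moved from 244.6 ± 4.78 to 193.6 ± 16.9 (SD, n = 6). No library of 1 set reached the range of the other in any of these sums. Pcdhgc3 led the gamma cluster in both sets, at 73.0 ± 1.24% of the sum in set 7 and 74.5 ± 0.77% in set 8.

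**Figure D3:**
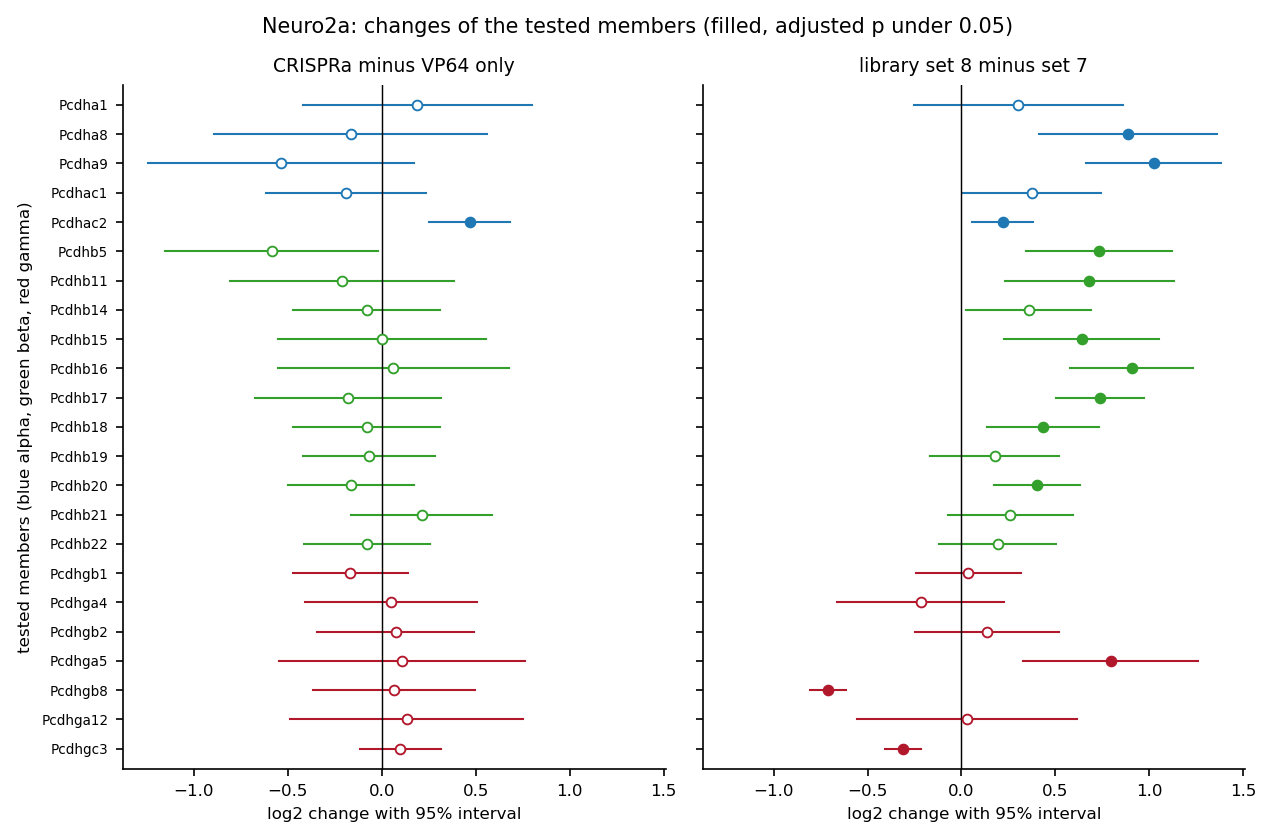
Log2 change with its 95% interval (x axis) of the 23 tested members (y axis, in cluster order) for CRISPRa minus VP64 only (left) and library set 8 minus set 7 (right); filled points have an adjusted p under 0.05. Pcdhac2 is the filled point on the left, and 13 points are filled on the right, of which Pcdhgb8 and Pcdhgc3 are below 0.

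The change with CRISPRa differed between the sets for 1 of 23 members, Pcdhgb1, where 21.8% of all genes were called, 9.42% with the higher change in set 8 and 12.3% with the lower. At an unadjusted p under 0.05, where 34.2% of all genes stood, there were 2, the other being Pcdhga12. Pcdhgb1, which lies early in the gamma array, read 15.0, 17.3 and 15.1 CPM with VP64 only and 14.3, 9.76 and 9.80 with CRISPRa in set 7, where all CRISPRa libraries were lower. In set 8 it read 13.4, 12.4 and 12.8 with VP64 only and 16.3, 11.5 and 15.9 with CRISPRa, and the groups overlapped. The difference between the changes was 0.64 (adjusted p = 0.026). It missed the threshold when any one of 6 libraries was left out, 2 of VP64 only (replicates 2 and 5) and 4 of CRISPRa (replicates 2, 3, 4 and 6), with values between 0.55 and 0.62 and adjusted p between 0.0544 and 0.0763. For Pcdhac2 the changes in the sets differed by 0.01 (adjusted p = 0.963).

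In the mouse nuclei 56 members were tested, all but Pcdhb1 and Pcdhb2, against 18967 genes. No member passed the threshold in any of the 3 comparisons by limma. Het against WT called 0% of all genes, Het CRISPRa against Het 0.0422% (0.00527% higher and 0.0369% lower) and Het CRISPRa against WT 0.00527%. At an unadjusted p under 0.05 there were 6, 7 and 3 members of 56, where 5.01, 5.25 and 1.77% of all genes stood. The authors' deposited tables put 0 of 57 members past 0.05 in each comparison, with 3, 8 and 3 at an unadjusted p under 0.05. The comparisons share libraries, Het in the first and second, so their values are not independent of each other.

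Cluster sums did not set the 3 groups apart. The alpha sum was 75.0 ± 8.57 CPM in WT, 66.3 ± 1.28 in Het and 68.3 ± 5.92 in Het CRISPRa (SD, n = 3). The beta sum was 102.5 ± 14.0, 96.2 ± 7.80 and 97.3 ± 5.41 CPM. The gamma sum was 146.4 ± 22.3, 135.9 ± 9.74 and 121.3 ± 7.21 CPM. The ranges of the groups overlapped in all 3 clusters. Within the gamma sum, the share of its leading gene Pcdhgc4 was 50.6 to 55.1% in WT, 53.6 to 54.0% in Het and 56.8 to 60.5% in Het CRISPRa, the last above all other libraries.

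In CPM, Pcdhgc4 itself read 62.4, 81.6 and 87.8 CPM in WT, 72.3, 68.2 and 78.9 in Het and 73.5, 73.4 and 64.8 in Het CRISPRa. The 3 groups overlapped. Its difference was -0.07 for Het against WT (95% interval -0.35 to 0.22) and -0.05 for Het CRISPRa against Het (-0.33 to 0.23). Pcdhgc5 read 16.8, 24.6 and 25.8 CPM in WT, 20.9, 19.1 and 17.2 in Het and 14.6, 14.3 and 15.0 in Het CRISPRa, the lowest group without overlap. Its differences of -0.37 ± 0.17 from Het and -0.58 ± 0.17 from WT did not pass (adjusted p = 0.81 and 1.00 by limma).

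The remaining C-type genes differed in how far their libraries were spread within a group. Pcdhac2 read 10.97, 11.05 and 10.69 CPM in WT, 10.5, 14.6 and 9.57 in Het and 14.0, 8.86 and 5.78 in Het CRISPRa. Its change in Het CRISPRa against Het was -0.33 ± 0.26, so the rise seen in Neuro2a had no counterpart past the threshold in these nuclei, and the difference between the experiments was not tested. That change was -0.0297 without the third Het CRISPRa library and -0.63 without the first. Pcdhac1 read 0.949, 3.12 and 5.31 CPM in WT, 1.18, 1.86 and 1.62 in Het and 2.26, 2.01 and 5.83 in Het CRISPRa (0.79 ± 0.47 against Het, adjusted p = 0.81, and 0.37 without the third Het CRISPRa library). Its Het CRISPRa libraries lay above those of Het and overlapped those of WT. Pcdhgc3 read 1.61, 1.45 and 0.413 CPM in WT, 1.52, 0.420 and 2.47 in Het and 1.11, 1.202 and 1.18 in Het CRISPRa (-0.09 ± 0.42 against Het).

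**Figure D4:**
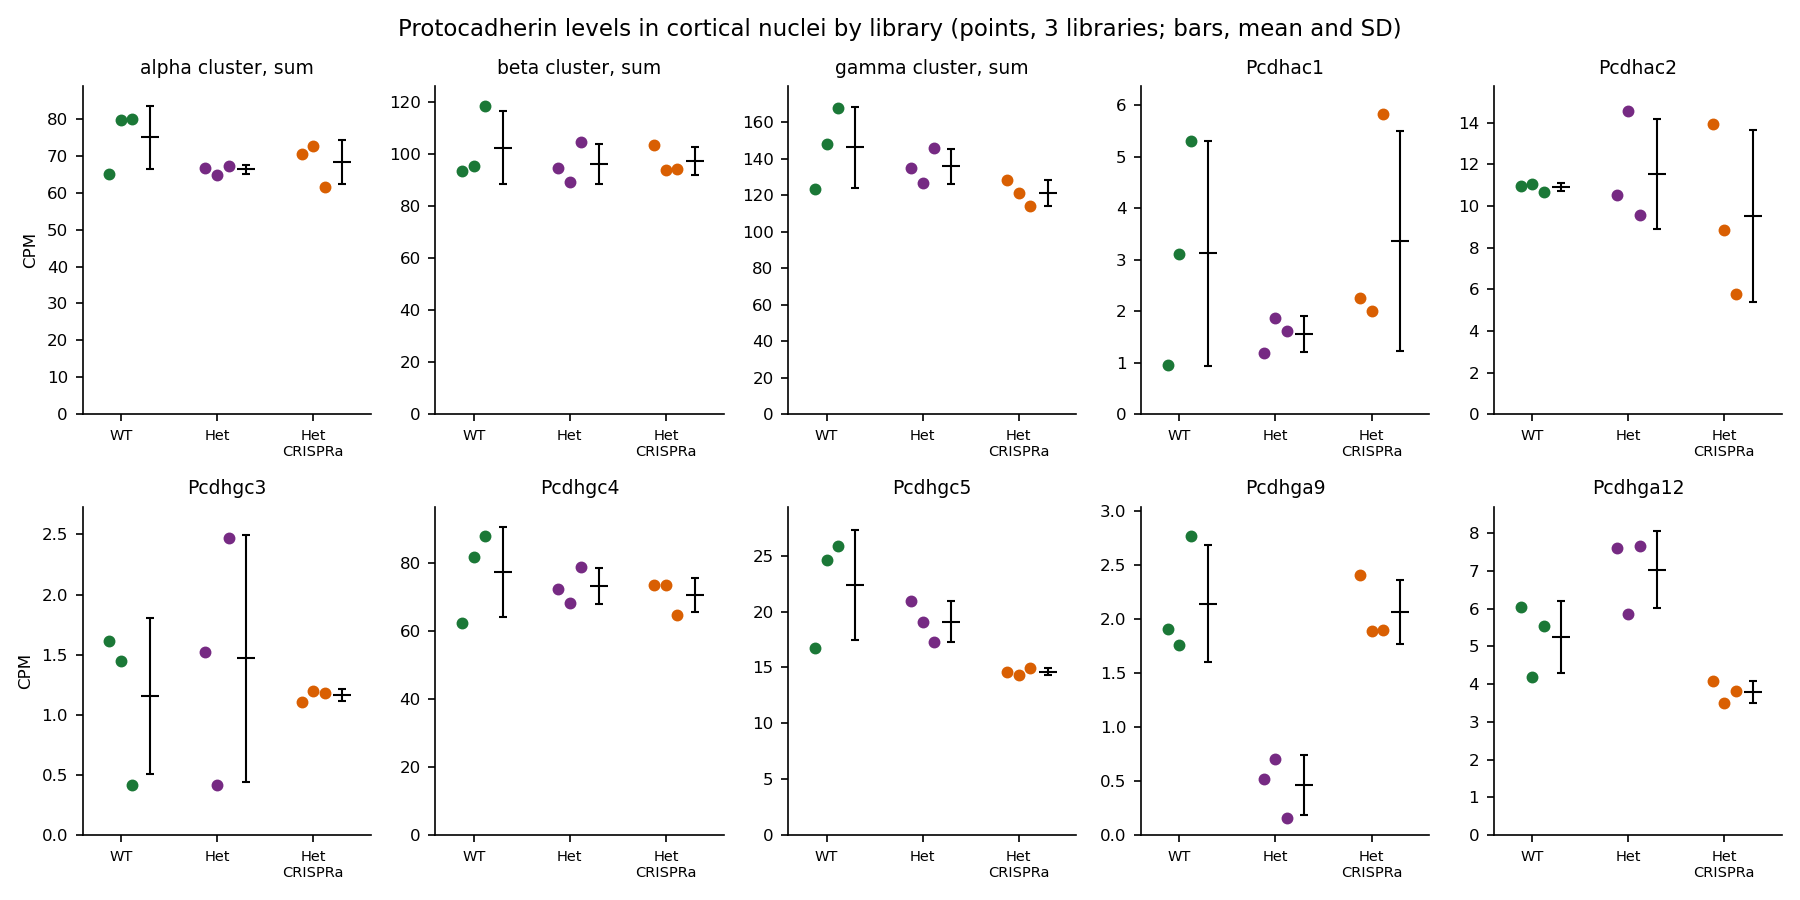
CPM (y axis) of the 3 cluster sums and 7 members in the cortical nuclei, by group (x axis); points are the 3 libraries and black bars the mean and SD. The sums overlap between groups, Pcdhgc4 lies between 62.4 and 87.8 CPM in every group, and Pcdhga9 is lowest in Het, at 0.160 to 0.708 CPM.

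Between Het and WT the smallest unadjusted p belonged to Pcdhga9, an alternate gamma A gene. It read 1.90, 1.76 and 2.76 CPM in WT and 0.515, 0.708 and 0.160 in Het. All Het libraries were lower, and the last is close to the 3 reads, 0.149 CPM, taken as the floor of that library. The change was -1.48 ± 0.29 (adjusted p = 0.722 by limma). The exact two-sided permutation test gave p = 0.1, the smallest that 3 against 3 allows, which groups without overlap always give. The authors' deposited table gave -2.16 ± 0.63 (adjusted p = 0.346).

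Next came the neighbours Pcdha11 and Pcdha10. Pcdha11 read 4.39, 2.33 and 3.59 CPM in WT and 2.43, 0.663 and 1.27 in Het, overlapping narrowly (-1.08 ± 0.33, adjusted p = 0.875). Pcdha10 read 4.26, 4.57 and 3.35 CPM in WT and 3.09, 1.17 and 2.26 in Het, apart (-0.83 ± 0.28, adjusted p = 0.875). In all, 37 of 56 members had values below 0 and 19 above, with a median of -0.11 beside -0.05 over all genes. The groups were apart for 6 members, all lower in Het, where 7.30% of all genes were apart in that direction and 3.37% in the other.

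Between Het CRISPRa and Het, Pcdhga9 again came first, with 2.40, 1.89 and 1.89 CPM against 0.515, 0.708 and 0.160. The change was 1.45 ± 0.29 (adjusted p = 0.152 by limma), and it used the same low Het libraries as the comparison with WT. Against WT its change was -0.03 ± 0.29. Pcdhga12 read 4.08, 3.49 and 3.82 CPM in Het CRISPRa, 7.60, 5.86 and 7.65 in Het and 6.04, 4.18 and 5.53 in WT. The Het CRISPRa libraries lay below all others (-0.80 ± 0.21 against Het, adjusted p = 0.499). Pcdha12 read 9.003, 9.09 and 7.09 CPM in Het CRISPRa, 6.92, 4.64 and 5.25 in Het and 7.66, 7.97 and 8.62 in WT (0.55 ± 0.19 against Het, adjusted p = 0.81). Values above and below 0 numbered 28 each. The groups were apart for 3 members that were higher and 6 that were lower, where 5.37 and 4.61% of all genes were.

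Between Het CRISPRa and WT, Pcdhgc5 was followed by Pcdhga1 and Pcdhga2, the first genes of the gamma array. Pcdhga1 read 0.503, 0.668 and 0.488 CPM in Het CRISPRa and 1.51, 2.595 and 1.24 in WT (-1.08 ± 0.34, adjusted p = 1.00). Pcdhga2 read 1.34, 0.427 and 0.688 CPM against 1.40, 1.66 and 2.68 (-0.89 ± 0.32, adjusted p = 1.00). Both pairs of groups were apart, the second narrowly. All 12 gamma A members had values below 0, and 41 of 56 members did so, with a median of -0.24 beside -0.02 over all genes. The gamma A values share divided reads and do not count as 12 separate measurements. The groups were apart for 8 members, all lower, where 4.46% of all genes were.

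The precision differed between the experiments. The median SE of a member's change was 0.20 in Neuro2a with 6 libraries a group and 0.29 in the nuclei with 3. Over the members with a mean of at least 1 CPM, 50 in the nuclei and 17 in Neuro2a, the median within-group coefficient of variation was 27.9% in the nuclei and 21.6% in Neuro2a. The Neuro2a value was taken within groups of 3 of the same treatment and library set, so the difference between sets is not in it, whereas each SE there comes from 6 libraries a group across both sets. Read sampling alone would give 13.9 (nuclei) and 14.0% (Neuro2a). In the nuclei it was 30.3, 25.1 and 26.4% for the alpha, beta and gamma clusters.

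**Figure D5:**
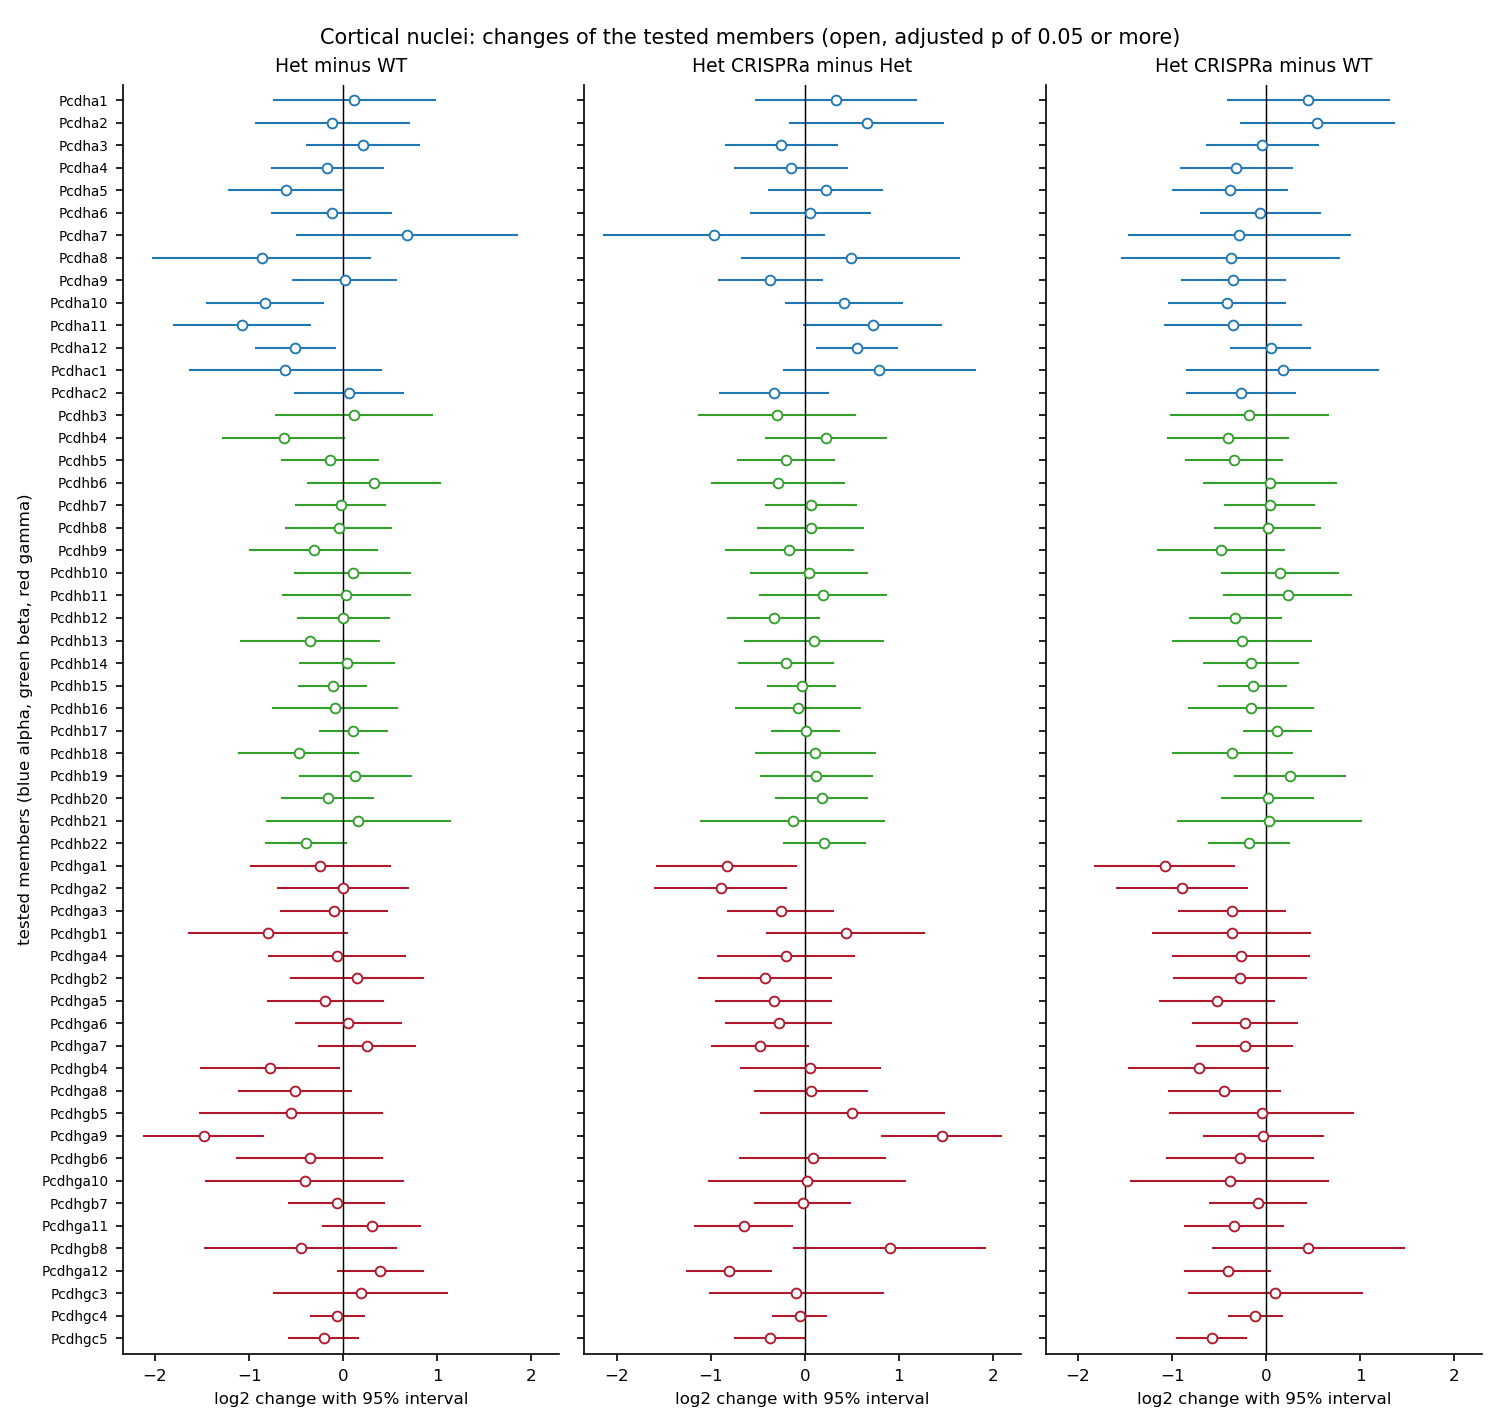
Log2 change with its 95% interval (x axis) of the 56 tested members (y axis, in cluster order) for Het minus WT, Het CRISPRa minus Het and Het CRISPRa minus WT; points are open because no member had an adjusted p under 0.05. Pcdhga9 lies farthest from 0 in the first panel, at -1.48, and in the second, at 1.45.

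Genes that act on the clusters were taken from a list of 26 regulators of protocadherin promoter choice, all tested. With CRISPRa in Neuro2a, 0 rose and 3 fell, where 10.0% of all genes were higher and 5.02% lower. These were Rad21, the cohesin subunit that closes the ring (-0.33 ± 0.046, adjusted p = 0.000624), and the 5-methylcytosine oxidases Tet1 (-0.97 ± 0.14, adjusted p = 0.000733) and Tet3 (-0.40 ± 0.078, adjusted p = 0.00481). Ctcf, which binds the promoters and enhancers of the clusters, had a value of -0.11 ± 0.17 (adjusted p = 0.717), and Smchd1, a repressor of clustered protocadherins, one of -0.18 ± 0.059 (adjusted p = 0.061). The list's median was -0.02, beside 0.06 over all genes. The change differed between the library sets for 7 of the 26, with the higher change in set 8 for 5 and the lower for 2, where 9.42 and 12.3% of all genes were called. Between the sets 2 regulators were higher and 11 lower in set 8, where 22.7 and 32.4% of all genes were. Among the lower were Stag1 (-0.71 ± 0.051), Dnmt1 (-0.75 ± 0.058), Ctcf (-0.57 ± 0.054) and Smc1a (-0.30 ± 0.035), with adjusted p of at most 1.9e-06. Their part in the members' difference between the sets was not tested.

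Coding genes beside or between the clusters share the chromosomal neighbourhood of the members. Of 22, 21 were tested in Neuro2a, and with CRISPRa 6 rose and 0 fell, where 10.0% of all genes were higher and 5.02% lower. Those with the smallest p were Ankhd1 (0.45 ± 0.069), Pcdh1 (0.32 ± 0.058), Apbb3 (0.58 ± 0.13) and Taf7 (0.55 ± 0.14), the last lying between the beta and gamma clusters, with adjusted p from 0.00114 to 0.0176. The list's median was 0.29, beside 0.06 over all genes and -0.07 over the tested members. For 5 of the 21 the change with CRISPRa was lower in set 8 than in set 7 by the test of that difference, and for 0 it was higher, where 12.3 and 9.42% of all genes were called. The median difference between the changes was -0.25, beside -0.05 over all genes. Between the sets 4 were higher and 8 lower in set 8, where 22.7 and 32.4% of all genes were.

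Non-clustered protocadherins, which lack the promoter array, numbered 12, of which 3 were tested in Neuro2a. Pcdh1, which is also among the neighbours like Pcdh12, rose with CRISPRa, and Pcdh12 (0.35 ± 0.23) and Pcdh17 (0.35 ± 0.26) did not pass. All 3 were higher in set 8 (Pcdh12 by 0.68 ± 0.13, Pcdh17 by 0.60 ± 0.21 and Pcdh1 by 0.12 ± 0.039). Partners of the cytoplasmic tails, such as kinases and the actin-regulating WAVE complex, numbered 18, of which 16 were tested in Neuro2a. With CRISPRa 0 rose and 3 fell, namely Marcks (-0.57 ± 0.071), Wasf1 (-0.29 ± 0.067) and Abi2 (-0.20 ± 0.058), with adjusted p of 0.000379, 0.0115 and 0.0349, where 5.02% of all genes were lower. The change differed between the sets for 5 of the 16 partners, higher in set 8 for 3 and lower for 2, and for 1 of the 3 non-clustered genes, lower in set 8. In the nuclei 26, 19, 11 and 18 genes of the 4 lists were tested, and 0 passed the threshold in any comparison.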

How the data were processed

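Levels were taken from the authors' deposited tables of CPM (read counts per 1e+06), one per experiment. Builds mm39 and GRCm39 are listed in the submitters' processing notes, beside DESeq2 1.44, featureCounts, R 4.4 and STAR 2.7.8a. The tool behind the CPM and the handling of reads with several alignments are not given in the sources used here. The authors' deposited comparison tables hold a log2 fold change with its SE, a p-value and an adjusted p-value, with a mean normalised signal and a test score per gene that were not used. Their WT against Het sign was turned. The tables of levels hold estimated reads: 70.8 to 73.2% (Neuro2a) and 79.8 to 82.4% (nuclei) of values above 0 were within 0.01 of a whole read, so tests on whole reads were not run.

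Linear models were fitted to log2(CPM + 0.5) with limma 3.58.1 (lmFit, then eBayes with trend, R 4.3.3), which understates changes of low genes. Genes with at least 0.5 CPM in 6 Neuro2a or 3 nuclear libraries were fitted, all 9 nuclear libraries in a single model. Adjusted p-values (Benjamini-Hochberg) cover every fitted gene of a comparison, and 0.05 was the threshold. A group is called apart, or not overlapping, when each of its libraries lies beyond each of the other's. The 2 transgene features were left out. The code was tested on simulated data. Permutation tests were two-sided on mean CPM (scipy 1.17.1). Floors of 3 reads cover counting error only. Transcript lengths, exons and order came from GENCODE M21, matched by gene ID for 58 of 58 members. Its build differs from the authors', so no coordinates are given, and no sequences are shown.

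Same-numbered Neuro2a libraries deviated together from their group means (correlations 0.305 to 0.499, all over the limit of 0.1 used here for pairing). Libraries of the same set with different numbers did so as much (0.284 to 0.505), and those of different sets had -0.513 to -0.294, so the correlations show no pairing by number beyond the library set. A fit with the replicate number as a block was run beside those with the set.

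Named members were the C-type genes, the highest of each cluster, those past the threshold (up to 6 per direction by smallest p) and, where none passed, the 3 with the smallest unadjusted p. Members called under an alternative (Pcdha9 and Pcdhb5 for the treatment) and examples of low or variable members were named after their values were seen, as were Ctcf and Smchd1 for their role. Up to 4 genes past the threshold were named per list. The members, lists and tests were chosen with earlier results of these data known. Alternatives covered the pseudocount, filter, scaling, trend, replicate block, library sets and leaving out each library.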

Additional observations from a re-analysis of the deposited data

Results flagged for a closer look

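Pcdhac1, an alpha C-type gene, read 1.997 CPM in the fifth CRISPRa library of Neuro2a, while the next highest of the 6 read 1.10 CPM. The gap was 0.626 of the group's range, just above Dixon's limit for 6 libraries. Of 28 groups looked at in this way 1 had such a library, and chance gives about 1 in 20. Without that library the Pcdhac1 change with CRISPRa was -0.34 (adjusted p = 0.17 by limma), in place of -0.19.

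Pcdhgb1 changed differently with CRISPRa in the 2 library sets of Neuro2a, by 0.64 more in set 8 than in set 7 on the log2 scale in the test of the difference itself (adjusted p = 0.026). The difference missed the threshold in 8 of 19 alternatives, with an adjusted p of up to 0.0987 by limma. Pcdhgb1 was 1 of 23 members called, where 21.8% of all genes were.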

How the results depend on the processing

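Of 732 recomputed values of 39 named changes, 699 kept their direction and their side of the threshold and 17 turned direction. Many of these changes, among them all nuclear ones, were uncalled. In the nuclei almost no gene passed, so the side of the threshold could hardly change there. Alternatives in which a gene fell below the filter were not counted. No alternative called a member in the nuclei. The rise of Pcdhac2 passed in all 23 alternatives. In Neuro2a the count of members higher with CRISPRa was 1 without any single library, and 2 in set 7 alone (Pcdhac2, Pcdhga12) and 2 in set 8 alone (Pcdhac2, Pcdhgc3). Over all genes the fits of set 7 alone and set 8 alone called 29.4 and 14.1% higher, against 10.0% in the fit of all libraries. The count lower, 0 in the fit without the block, was 2 with the replicate block (Pcdha9, Pcdhb5), 2 when the set entered as a covariate, and 2 when set 7 was fitted alone (Pcdha9, Pcdhgb1). Over all genes these fits called 11.4, 14.5 and 16.4% lower, against 5.02% without any of these terms. The pairing by replicate numbers, which also separates the sets, changed no other call. Nuclear numbers did not pair the samples (correlations -0.110 to 0.418), and a replicate block there called 0 members. The difference between sets in the change (1 higher, 0 lower) became 0 higher with no filter and 0 with eBayes without trend. Leaving out single libraries gave 0 to 1 higher and 0 to 1 lower, the latter Pcdhga12 (without VP64 only replicates 3 or 6 or CRISPRa replicate 4). The count higher in set 8 was 7 with the filter at 1 CPM, which tests fewer genes, 13 with no filter and 7 to 11 without single libraries. In some of the latter fits Pcdhb5 fell below the filter and was not tested. Pcdhb11 and Pcdhga5, which met the filter as narrowly, can drop out in the same way. Over all genes 3142 of 13148 were higher with the filter at 1 CPM and 2955 of 31551 with no filter. In the main fit 3262 of 14398 were, so the counts of members rest on different bases. Where not stated, the cause of a change was not tested. Changes that turned direction were uncalled. In Neuro2a with CRISPRa these were Pcdhgb1 (0.15), Pcdhac1 (0.0285) and Pcdhga12 (-0.46) in set 8 alone, and Pcdhga12 also with quantile scaling (-0.000197) and without VP64 only replicate 1 (-0.0344 to 0.32 without single libraries). The others turned when 1 nuclear library was left out, given here with their lowest and highest values. For Het against WT they were Pcdhac2 without Het 2 (-0.11 to 0.18), Pcdhgc3 without WT 3 or Het 3 (-0.20 to 0.66) and Pcdhgc4 without WT 3 (-0.21 to 0.0327). For Het CRISPRa against Het they were Pcdhgc3 without Het 1 or 3 (-0.56 to 0.29) and Pcdhgc4 without Het 3 or Het CRISPRa 3 (-0.0995 to 0.00891). For Het CRISPRa against WT they were Pcdhac1 without WT 1 or Het CRISPRa 3 (-0.38 to 0.62), Pcdhac2 without Het CRISPRa 3 (-0.57 to 0.0287) and Pcdhgc3 without WT 3 (-0.29 to 0.32). Depth limits members near 3 reads, 0.143 to 0.193 CPM, and 3 libraries a group limit the nuclear comparisons.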
